A study of Homo sapiens with 2 samples.

Results

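The genes of the JAK, STAT5 and SOCS families were examined in REH and 697, established human cell lines of acute lymphoblastic leukemia of B-cell precursors (BCP-ALL). The set was given by name and holds 10 of the 57773 genes in the count tables, namely the kinases JAK1, JAK2, JAK3 and TYK2, the transcription factors STAT5A and STAT5B, and the inhibitors SOCS1, SOCS2, SOCS3 and CISH. In REH the ETV6/RUNX1 fusion is present and the other ETV6 allele is deleted, whereas 697 lacks this fusion. Both lines were untreated and were grown in RPMI with serum, glutamine and antibiotics, and the labels name no added cytokine. Total RNA of each line was sequenced as 1 library, so each value describes that library, the variation between cultures is unknown, and no p-value can be given.

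Cytokine receptors of this pathway have no enzyme activity of their own and signal through Janus kinases (JAKs) bound to their inner tails. Once a cytokine has drawn the chains together, the JAKs phosphorylate one another, the receptor and STAT proteins, and STAT5 dimers enter the nucleus to switch on survival and growth genes, among them genes for their own inhibitors CISH and SOCS1 to SOCS3. In B-cell precursors the best known input is interleukin 7, whose receptor uses JAK1 and JAK3, and activated JAK or cytokine receptor genes drive a part of high-risk BCP-ALL.

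The REH library held 45188375 reads in genes and the 697 library 41097497 reads. Levels are given as CPM, counts normalised to library totals scaled by TMM, and for comparisons between genes as CPM per kb of exon. A log2 ratio is REH over 697, with 0.5 reads added to each count, and its 95% interval covers counting error only. Scaling lowered every log2 ratio by 0.31 relative to unscaled totals. Of 12 B-cell precursor markers, 11 exceeded 100 CPM in both libraries. The exception was VPREB1, a surrogate light chain gene, with 3 reads in REH and 10039 reads in 697. Of the T-cell markers, CD3D and CD2 had 0 reads in both libraries CD3E had 45 reads in REH and 0 in 697, and the list summed to 1.03 and 0.0271 CPM. The myeloid markers summed to 261 CPM in REH and 2.27 CPM in 697, nearly all of it from MPO in REH (251.5 CPM). Their part in the results below was not tested. The 4 erythroid markers had 0 reads in REH and at most 3 reads in 697.

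Among the 10 genes, SOCS2 differed most between the lines and was 10.5-fold higher in 697. STAT5A, STAT5B and JAK1 were also higher in 697, JAK3 was higher in REH, and JAK2 was at the same level within counting error. SOCS1, SOCS3 and CISH, which like SOCS2 are induced by STAT signals, had at most 105 reads in either library, whereas SOCS2 had 622 in REH and 4820 in 697. Of the 10 genes, 9 reached the minimum of 10 reads in REH or in 697 and were counted against all genes tested, and SOCS3 did not. With a log2 ratio past 1 taken as a difference, 4 of the 9 genes were higher in 697 (JAK1, STAT5A, STAT5B and SOCS2), against 17.4% of the 19145 genes tested. In the same way 1 gene (JAK3) was higher in REH, against 22.4% of all genes. With a log2 ratio past 2, SOCS2 was higher in 697 and none of the 9 was higher in REH, against 8.15% and 12.5% of all genes. The median log2 ratio was -0.25 over the 9 genes and 0.05 over all genes tested. The former was the value of SOCS1, on 62 reads in REH and 54 in 697. Without scaling the median was 0.06 over the 9 genes and 0.36 over all genes. The split over all genes also depended on scaling, with 4293 genes past a ratio of 1 towards REH and 3336 towards 697, and 5456 and 2566 without it.

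**Figure D1:**
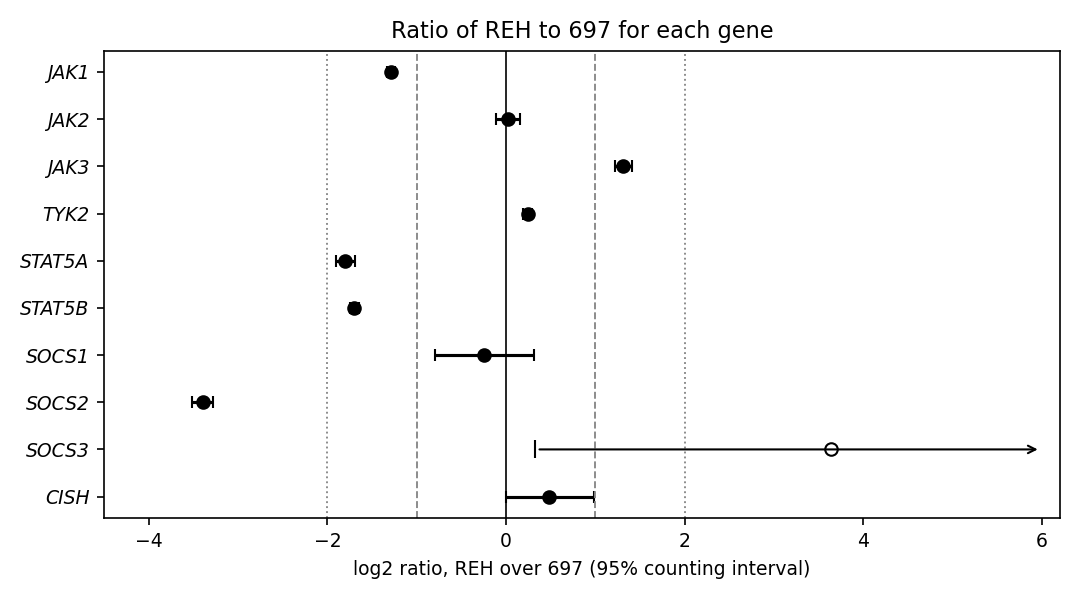
The log2 ratio of REH over 697 (horizontal axis) for each of the 10 genes, with the 95% counting interval as a bar; dashed lines mark a log2 ratio of 1 in size and dotted lines 2. SOCS2 lies at -3.40, JAK1, STAT5A and STAT5B between -1.80 and -1.29, and JAK3 at 1.31; the open circle and arrow mark SOCS3, which had 0 reads in 697 and no upper bound.

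The JAK kinases were taken first. JAK1 (ENSG00000162434, chromosome 1, 64833223 to 65067754, GRCh38), which serves the interleukin 7, interferon and gp130 receptors, had 6132 reads in REH and 11002 reads in 697, or 122.0 and 297.8 CPM. Its level was 2.44-fold higher in 697 (log2 ratio -1.29, interval -1.33 to -1.24). The difference was larger than counting error, but without scaling the ratio was -0.98 and JAK1 fell short of a log2 ratio of 1. JAK3 (ENSG00000105639, chromosome 19, 17824780 to 17848071), which binds the common gamma chain of the interleukin 2, 4, 7, 9, 15 and 21 receptors, had 3773 reads in REH and 1116 in 697, or 75.1 and 30.2 CPM. JAK3 thus went the opposite way to JAK1, its partner on the interleukin 7 receptor, and was 2.48-fold higher in REH (log2 ratio 1.31, interval 1.22 to 1.41).

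JAK2 (ENSG00000096968, chromosome 9, 4984390 to 5129948), a kinase of the erythropoietin and TSLP receptors, had 1040 reads in REH and 754 reads in 697. This amounted to 20.7 and 20.4 CPM, and the log2 ratio of 0.02 (interval -0.12 to 0.16) could not be told from 0. Its sign turned to -0.01 with DESeq2 size factors. TYK2 (ENSG00000105397, chromosome 19, 10350533 to 10380608), which acts in type I interferon and interleukin 12 signalling, had 9002 and 5593 reads, or 179.1 and 151.4 CPM. TYK2 was slightly higher in REH (log2 ratio 0.24, interval 0.19 to 0.29).

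Because the 4 kinases were counted in the same library, their ratio to each other does not depend on how the libraries were scaled. There were 1.63 JAK1 reads for each JAK3 read in REH (interval 1.56 to 1.69) and 9.86 in 697 (9.27 to 10.5). Per kb of exon, TYK2 made up 50.2% of the summed JAK level in REH, followed by JAK1 with 22.1%, JAK3 with 21.4% and JAK2 with 6.25%. In 697 JAK1 led with 48.5%, followed by TYK2 with 38.2%, JAK3 with 7.75% and JAK2 with 5.54%. The leading kinase transcript therefore differed between the libraries, while JAK2 was the least abundant of the 4 in both. With TMM scaling the summed level was 41.9 CPM per kb in REH and 46.6 in 697. Unlike the ratios within a library, this comparison depends on the scaling.

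**Figure D2:**
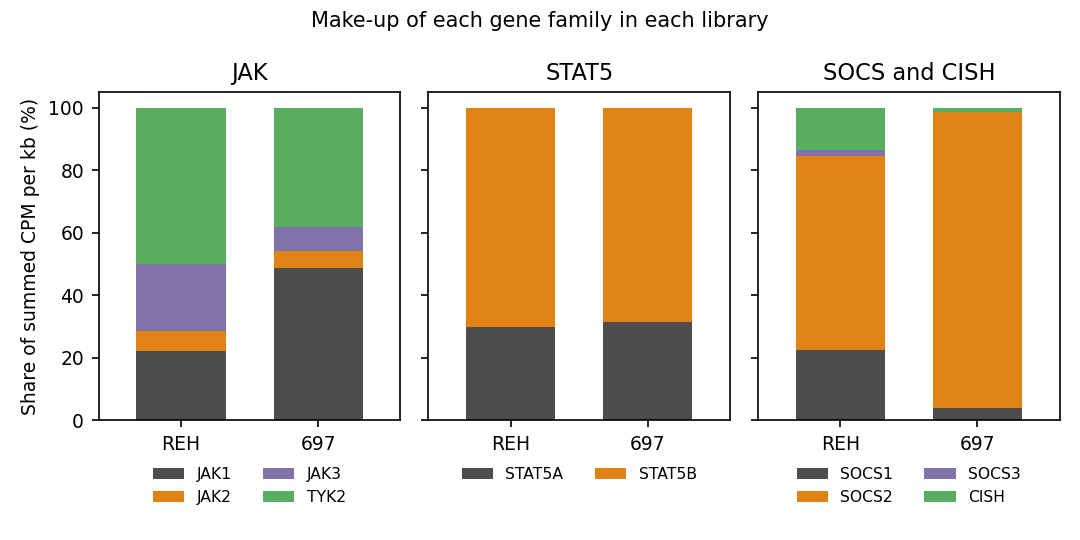
Share of each gene (vertical axis, percent) in the summed CPM per kb of its family, in the REH and the 697 library; each stacked bar adds to 100% and has no error bar, as there is 1 library per line. TYK2 takes 50.2% of the JAK level in REH and JAK1 48.5% in 697, the STAT5 bars are nearly alike, and SOCS2 takes 62.2% of the SOCS level in REH and 94.8% in 697.

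Both STAT5 genes were higher in 697 and to a like extent. STAT5A (ENSG00000126561, chromosome 17, 42287547 to 42311943) had 992 reads in REH and 2537 reads in 697, or 19.7 and 68.7 CPM, which is a 3.48-fold difference (log2 ratio -1.80, interval -1.91 to -1.69). STAT5B (ENSG00000173757, chromosome 17, 42199176 to 42288633), its neighbour on the opposite strand, had 4432 and 10588 reads, or 88.2 and 286.6 CPM, a 3.25-fold difference (log2 ratio -1.70, interval -1.75 to -1.65). The interval of STAT5A holds the ratio of STAT5B, so the size of the difference was not separable between them. STAT5B was the more abundant transcript in both lines, with 4.47 reads for each STAT5A read in REH (interval 4.17 to 4.79) and 4.17 in 697 (3.996 to 4.36). Per kb the STAT5B level was 2.36 times that of STAT5A in REH and 2.20 times in 697.

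The STAT5 genes encode closely related proteins and share stretches of sequence. Of all windows of 50 bases in STAT5A transcripts, 12.4% also occur in STAT5B, and 6.47% of those in STAT5B occur in STAT5A. Windows were matched on either strand, so these shares include 415 bases of exon where the genes overlap on opposite strands. Counting each strand apart added no reads to either gene. Reads that match both genes equally were not counted, so the level of either may be too low. The share of windows does not measure how many such reads were lost, and the split between the genes remains uncertain. For JAK2, SOCS1 and SOCS3 no window of this length was shared with a transcript of another gene, and for JAK1, JAK3, TYK2, SOCS2 and CISH the share was at most 4.93%.

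The inhibitors form feedback loops around these kinases. SOCS1 blocks the JAK active site, SOCS3 acts mainly on gp130 and related receptors, and SOCS2 and CISH bind phosphorylated receptor tails, SOCS2 being best known for restraining growth hormone signalling. SOCS2 (ENSG00000120833, chromosome 12, 93569814 to 93583487) had 622 reads in REH and 4820 reads in 697, or 12.4 and 130.5 CPM. It was 10.5-fold higher in 697 (log2 ratio -3.40, interval -3.52 to -3.28), and over the alternatives tried the ratio stayed between -3.52 and -3.09. Per kb, SOCS2 lay above 29.4% of the protein-coding genes with at least 10 reads in REH and above 81.5% of those in 697. The difference also showed against each STAT5 gene within a library, with 0.140 SOCS2 reads for each STAT5B read in REH (interval 0.129 to 0.153) and 0.455 in 697 (0.440 to 0.471).

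SOCS2 overlaps the lncRNA gene SOCS2-AS1 on the opposite strand over 277 bases of its exons, 4.28% of their length. SOCS2-AS1 had 108 reads in REH and 818 reads in 697 (log2 ratio -3.36). The counts fell evenly on both strands, with 53.5% of strand-assigned SOCS2 reads in the first strand column in REH and 48.6% in 697, so transcripts of this pair cannot be separated where they overlap. Counting each strand apart gave SOCS2 another 19 reads in the REH library and another 137 in the 697 library, few beside its totals.

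The other inhibitors were scarce. SOCS1 (ENSG00000185338, chromosome 16, 11254417 to 11256204) had 62 reads in REH and 54 reads in 697, or 1.23 and 1.46 CPM. Its log2 ratio of -0.25 (interval -0.79 to 0.31) was within counting error, and its sign turned to 0.06 without scaling and to 0.31 in the first strand column. SOCS3 (ENSG00000184557, chromosome 17, 78356778 to 78360077) had 8 reads in REH and 0 reads in 697, where 3 reads would correspond to 0.0812 CPM. With 697 set at 3 reads, the 8 reads in REH gave an at least 1.96-fold higher level, a bound that leaves out the counting error in REH. The counting interval of the log2 ratio began at 0.33, and at -5.71 in the second strand column, where it included 0. CISH (ENSG00000114737, chromosome 3, 50606489 to 50611774) had 105 and 55 reads, or 2.09 and 1.49 CPM, and its log2 ratio was 0.48 (interval 0.0047 to 0.99). This interval only just excluded 0, and it included 0 with DESeq2 size factors (from -0.02), in the first strand column (from -0.11) and in the second (from -0.24). CISH overlaps MAPKAPK3 on the opposite strand over 218 bases, and MAPKAPK3 had 1738 reads in REH and 1550 in 697. Reads on exons of both genes were set aside as ambiguous in the count for either strand. Counting each strand apart gave CISH another 5 reads in REH and another 3 in 697.

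CISH is a textbook target of STAT5, and its promoter is printed because it holds the letters that STAT dimers recognise, TTCNNNGAA, which read the same on both strands. The window runs from 250 bases before to 50 bases after the start in RefSeq (GRCh38.p14, chr3:50611725-50612024, minus strand) and the capitals mark each match.
CISH promoter: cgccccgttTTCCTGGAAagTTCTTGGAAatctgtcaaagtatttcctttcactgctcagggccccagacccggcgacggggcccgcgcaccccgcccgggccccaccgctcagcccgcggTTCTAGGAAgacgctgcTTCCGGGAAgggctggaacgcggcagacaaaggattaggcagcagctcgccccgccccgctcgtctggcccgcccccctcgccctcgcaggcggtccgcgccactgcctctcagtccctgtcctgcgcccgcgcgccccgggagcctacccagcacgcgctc
The 4 matches begin 241, 230, 129 and 112 bases before the start. Of the 10 genes, 9 have windows in the table, 17 in all, and SOCS2 has none. The CISH window was the only one of the 17 with these letters, which occur in 7.66% of all 35116 promoter windows. The RUNX letters TGTGGT, searched on both strands as TGTGGT or ACCACA, occur in 13.1% of all windows and in none of the 17. A match is a description of the letters, not evidence of binding. CISH had 105 and 55 reads, and a link between the letters and the level was not tested.

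Set beside each other within a library, the genes spanned from SOCS3 at the bottom to TYK2 at 21.0 CPM per kb in REH and STAT5B at 23.7 CPM per kb in 697. The order in REH was TYK2, JAK1 (9.26), JAK3 (8.97), STAT5B (7.28), STAT5A (3.09), JAK2 (2.62), SOCS2 (1.91), SOCS1 (0.690), CISH (0.413) and SOCS3 (0.0582). JAK1 and JAK3 were the only neighbours in this order whose counting intervals overlapped. The order in 697 was STAT5B, JAK1 (22.6), SOCS2 (20.1), TYK2 (17.8), STAT5A (10.8), JAK3 (3.61), JAK2 (2.58), SOCS1 (0.817), CISH (0.294) and SOCS3 (0), with no overlap between neighbours. SOCS2 thus stood below both STAT5 genes in REH and between JAK1 and TYK2 in 697, while SOCS1, CISH and SOCS3 held the last places in both. With the longest transcript as the length, SOCS2 and JAK2 exchanged places in REH and the order in 697 stayed as it was. TYK2 lay above 85.4% of the protein-coding genes in REH and 78.8% in 697, and CISH above 14.5% and 9.99%.

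**Figure D3:**
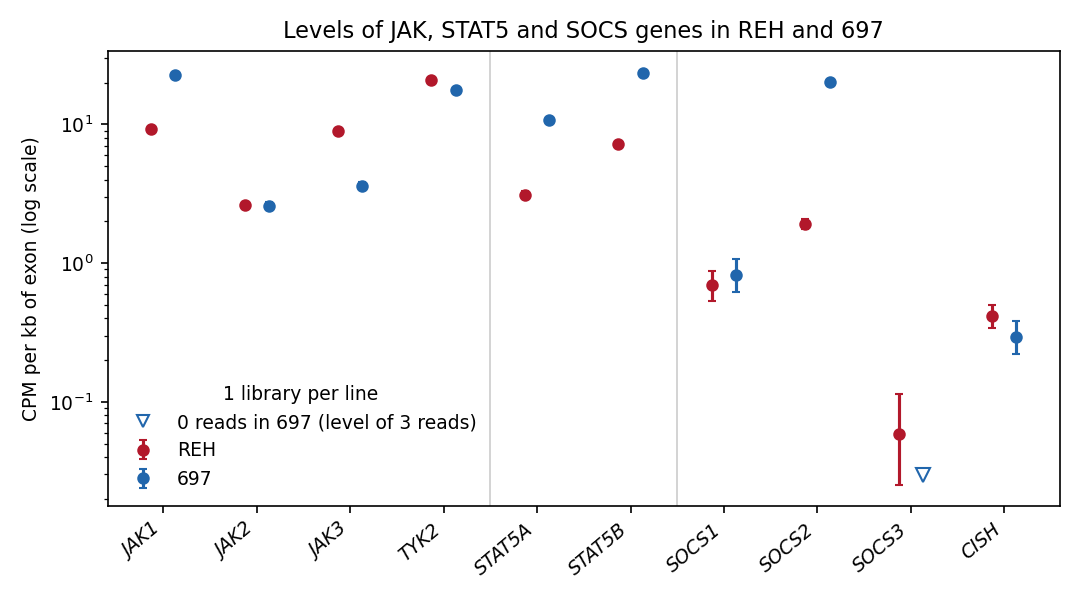
CPM per kb of exon on a log axis for each of the 10 genes in REH (red) and 697 (blue), with the exact Poisson 95% counting interval as a bar, often smaller than the point; the triangle marks the level of 3 reads for SOCS3 in 697, which had 0 reads. The lines part at SOCS2 (1.91 and 20.1), STAT5A, STAT5B, JAK1 and JAK3, and meet at JAK2 (2.62 and 2.58).

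The rest of the pathway was described from 7 lists with 89 genes, of which 88 matched an ID (SOCS7 did not) and 71 reached the read minimum. Over these lists 13 genes passed a log2 ratio of 1 towards REH and 12 towards 697. Without scaling these numbers were 21 and 8 (29.6% and 11.3% of those tested), against 5456 and 2566 of all 19145 genes. The 13 and 12 genes made up 18.3% and 16.9% of those tested, close to the 22.4% and 17.4% of all genes. The counts therefore say nothing particular about the pathway. The same 22.4% and 17.4% are the background for each single list below. Ligands that activate STAT5 were nearly absent. Of 15 ligand genes, 8 had 0 reads in both libraries, including IL7, TSLP, IL2 and IL3, and 4 reached 10 reads. The most abundant ligand per kb was THPO, thrombopoietin, at 1.17 CPM per kb in REH and 0.871 in 697.

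Of the receptors that activate STAT5, the interleukin 7 receptor was the most abundant in both lines. IL7R, its alpha chain, had 24832 reads in REH and 27282 reads in 697, or 82.1 and 122.7 CPM per kb, and was 1.49-fold higher in 697. Of the 14 receptor genes tested, 6 passed a log2 ratio of 1 towards REH and 2 towards 697. Over all genes 22.4% and 17.4% passed. The median of the 14 was 0.61. With a minimum of 50 reads, which leaves fewer genes, 3 passed towards REH and 1 towards 697. EPOR, the erythropoietin receptor that signals through JAK2, had 1365 reads in REH and 31 reads in 697 (log2 ratio 4.99, interval 4.50 to 5.58). CSF3R, the granulocyte colony-stimulating factor receptor, had 920 and 32 reads (log2 ratio 4.38, interval 3.89 to 4.96). The receptors towards 697 were IL3RA and IL9R, and without scaling IL3RA fell short (log2 ratio -0.81 instead of -1.12), as it did in the first strand column (-0.94). CRLF2, CSF2RA, IL3RA and IL9R lie in regions shared by the X and Y chromosomes, so their counts are uncertain, since reads with several matches were dropped.

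Of the 16 other JAK-coupled receptors tested, 3 passed a log2 ratio of 1 towards REH and 5 towards 697. Over all genes 22.4% and 17.4% passed. The median of the 16 was 0.01, and without scaling 4 passed each way. With a minimum of 50 reads, which leaves fewer genes, 1 passed towards REH and 4 towards 697. IL6R (11 reads in REH and 0 in 697), IL13RA1 (27 and 1) and LIFR (1 and 20) rested on few reads. IL12RB2, a chain of the interleukin 12 receptor that pairs with JAK2, had 22 reads in REH and 8911 reads in 697 (log2 ratio -9.07, interval -9.78 to -8.51). IFNLR1, the interferon lambda receptor, had 11 and 1280 reads (log2 ratio -7.24), and LEPR, the leptin receptor, had 34 and 486 reads (log2 ratio -4.26). These 3 receptors were the genes of this list past a log2 ratio of 2 with at least 100 reads, and each was higher in 697.

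STAT6, the most abundant of the other STAT genes per kb, had 11432 and 8539 reads (log2 ratio -0.02, interval -0.06 to 0.02). Of the 5 genes, only STAT4 exceeded a log2 ratio of 1, on 20 reads in REH and 6 reads in 697, and its interval (-0.08 to 2.90) included 0. With 5 added reads the ratio of STAT4 was 0.74. STAT3, which lies beside the STAT5 genes on chromosome 17, had 3106 and 3885 reads, and its log2 ratio was -0.77 (interval -0.84 to -0.70).

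None of the 7 other SOCS genes and SOCS-box ligase partners tested passed a log2 ratio of 1, but ELOC, at -0.97, passed it with DESeq2 size factors (-1.001). ELOB, which links the SOCS box to a cullin ubiquitin ligase, was the most abundant per kb (17.6 CPM per kb in REH and 14.5 in 697). Of 12 other negative regulators, PTPN2, a phosphatase that removes phosphate from JAK1 and JAK3, was the single gene past a log2 ratio of 1, with 1900 reads in REH and 3290 reads in 697 (log2 ratio -1.24, interval -1.32 to -1.15). Without scaling PTPN2 fell short (-0.93) and PIAS4 passed towards REH instead (1.02). PTPN1, a related phosphatase, was the most abundant of them (25.2 and 21.0 CPM per kb).

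Over the 13 genes known as STAT5 targets the median log2 ratio was 0.72, also with CCND2 at its bound. Past a log2 ratio of 1 towards REH lay 2 genes, PIM1 (1.52) and CCND2, against 22.4% of all genes. Towards 697 lay 3 genes, CCND3, MYC (-1.56) and ID1, against 17.4% of all genes. This balance depended on scaling, since without it 7 genes passed towards REH and 2 towards 697, with CCND3 at -0.99 and with PIM2, BCL2, BCL6, OSM and CDKN1A added. The list was not sorted by whether STAT5 raises or lowers each gene, so its median is no measure of STAT5 activity. In the first strand column ID1, on 13 and 38 reads in all, fell short (-0.93). CCND3, a G1 cyclin, was the most abundant per kb with 26371 reads in REH and 47607 reads in 697 (log2 ratio -1.30, interval -1.32 to -1.27). CCND2, another G1 cyclin, had 168 reads in REH and 0 in 697 and was at least 41.2-fold higher in REH with 697 set at 3 reads, which leaves out the counting error in REH. Its counting interval began at a log2 ratio of 5.05. Of the survival genes, BCL2 had 19056 and 7555 reads (log2 ratio 0.89, interval 0.85 to 0.93), while BCL2L1 and MCL1 had log2 ratios of -0.10 and -0.14.

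**Figure D4:**
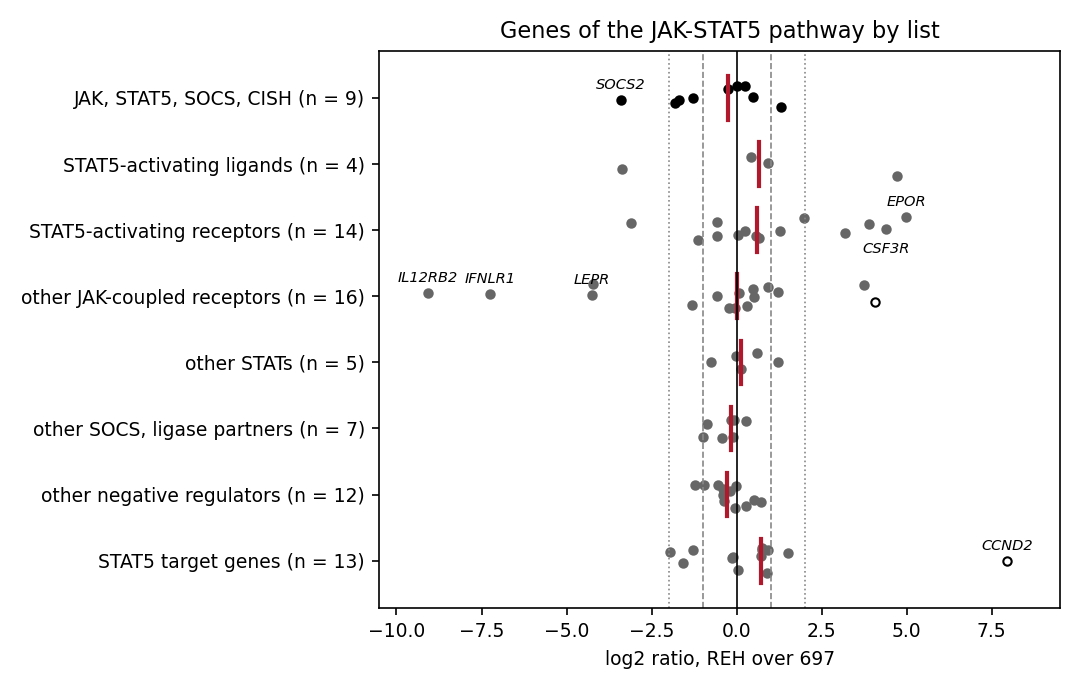
The log2 ratio of REH over 697 (horizontal axis) for the genes that reached the read minimum, in 8 groups; each point is a gene, the red bar is the median, open points had 0 reads in 697, and names are given past a log2 ratio of 2 with at least 100 reads. The other STATs and the SOCS ligase partners stay within 2 of 0, whereas SOCS2, IL12RB2, IFNLR1 and LEPR lie far to the left and EPOR, CSF3R and CCND2 far to the right.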

How the data were processed

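RNA was sequenced from 1 library of REH and 1 of 697, and groups follow the cell line in the labels. The authors deposited raw read counts per gene made with STAR, for either strand and for each strand. The study's methods name hg38 and the submitters' processing notes hg19. The annotation release is not given in the sources used here, nor are multimapping reads in the counts. The methods describe poly(A) purification and the labels ribodepletion. The column for either strand was used. Symbols, positions and exon lengths came from GENCODE 44 (GRCh38) by gene ID (51996 of 57773 matched), so lengths may differ from those the authors counted over. Library totals were scaled by TMM (edgeR 4.0.16, R 4.3.3; factors 1.11 for REH and 0.899 for 697), and a gene was tested where either library held at least 10 of its reads. Ratio intervals are exact Clopper-Pearson and level intervals exact Poisson, at 95%, and cover counting error only. The floor was 3 reads. The study used DESeq2, which needs replicates, so no p-value was computed. The genes and lists were chosen with earlier results of these data known. All 10 genes are named. From each list the text names genes past a log2 ratio of 2 with at least 100 reads (at most 5 per direction) and the most abundant per kb, and any others were chosen after their values were seen. The computation was tested on simulated data. Alternative size factors came from DESeq2 1.42.0. Intervals came from scipy 1.17.1 and plots from matplotlib 3.10.9, run in Python 3.11.15.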

Additional observations from a re-analysis of the deposited data

How the results depend on the processing

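The alternatives were TMM over protein-coding genes alone, DESeq2 size factors, no scaling, 5 added reads, each strand column, minimums of 1 and 50 reads, and the longest transcript as gene length. JAK1, JAK3, STAT5A, STAT5B and SOCS2 kept their direction under each scaling, strand and added-read setting, and JAK1 fell to -0.98 without scaling. JAK2 (-0.01 with DESeq2 size factors) and SOCS1 (0.06 without scaling, 0.31 in the first strand column) changed sign. The median of the 9 genes turned to 0.06 without scaling and 0.07 in the first strand column. With 5 added reads the ratio of SOCS3 was 0.93 instead of 3.64. Without scaling 21 of 71 pathway genes (29.6%) were higher in REH at a log2 ratio of at least 1, and 5456 of all 19145 genes. With 5 added reads 5 of 71 (7.04%) were higher in REH at a ratio of at least 2 (8 as reported, 11.3%). Over all genes 1614 were (2396 as reported). With a minimum of 1 read SOCS3 was added, so 2 of the 10 genes were higher in REH at a ratio of at least 1. At a ratio of at least 2, 1 was. Over all genes 9320 were higher in REH and 7064 in 697 at a ratio of at least 1. At a ratio of at least 2, 4410 were higher in 697. This minimum admits more genes than the 19145, so these counts are not shares of 19145 and give no background share. A minimum of 50 reads leaves fewer genes, and 7 of the 58 pathway genes tested (12.1%) were higher in REH at a ratio of at least 1. At a ratio of at least 2, 4 (6.9%) were higher in REH and 3 (5.17%) in 697. Over all genes this minimum gave 2754 higher in REH at a ratio of at least 1. At a ratio of at least 2 it gave 1477 in REH and 1036 in 697. These counts are among fewer genes than 19145, so they too give no background share. No paired analysis was possible because REH and 697 were sequenced once each, and for the same reason no replicate could be left out. Depth limits SOCS1, SOCS3 and CISH, which had at most 105 reads.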

Other observations

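The protein-coding genes within 1 Mb of each gene were listed after the ratios had been seen, with positions of GENCODE 44. Around JAK1 on chromosome 1 7 such genes reached the read minimum (ROR1, CACHD1, RAVER2, AK4, LEPR, LEPROT and PDE4B). Their median log2 ratio was -4.06, and 6 of the 7 lay further towards 697 than JAK1. Around SOCS2 on chromosome 12 there were 8 (EEA1, NUDT4, UBE2N, MRPL42, CRADD, PLXNC1, CEP83 and TMCC3), with a median of -0.55, and 7 of the 8 lay above the ratio of SOCS2. Around STAT5A and around STAT5B there were 52 neighbours each, with a median of -0.13, and 51 and 49 of them lay above the ratio of the STAT5 gene. The 56 genes around JAK3 had a median of 0.48 and the 54 around TYK2 a median of 0.44. Around JAK2 14 genes had a median of -0.78, and 11 of them lay below the ratio of JAK2. The 18 around SOCS1 had a median of 1.05, and 16 lay above the ratio of SOCS1. The 38 around CISH had a median of -0.59, and 31 lay below the ratio of CISH. The 18 around SOCS3, itself short of the read minimum, had a median of 0.18. Genes within such a window share a stretch of chromosome and are not independent, and copy number was not measured.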
